A study of Mus musculus with 2 samples.

Results

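The 8 genes described here are Tnf, its receptors Tnfrsf1a and Tnfrsf1b, the NF-kB feedback genes Tnfaip3, Nfkbia and Nfkbiz, and the inflammatory effectors Ptgs2 and Il10. They were taken by symbol, and all 8 were present among the 22975 genes that the WT and CCR2KO count tables share. The tables come from single-cell RNA sequencing on microwell cartridges (BD Rhapsody) of lung cells from C57BL/6 mice given silica into the trachea at 400 mg/kg, with lungs taken at 3, 7 and 21 days. One library held wild-type mice and the other held mice lacking the chemokine receptor CCR2 (CCR2-/-, labelled CCR2KO here); there was no library of mice without silica. The WT library carried 9 antibody hashtags and the CCR2KO library 8, each marking a separately stained cell suspension, and 16857 WT and 14882 CCR2KO cells were kept. The labels do not say which hashtag holds which day or mouse, so days were not compared, and genotype and cartridge cannot be told apart. Levels are in CPM, the gene's reads per 1000000 reads of a cell class summed within a hashtag, and n counts hashtags (9 WT and 8 CCR2KO unless stated).

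TNF is a cytokine made mainly by activated myeloid and lymphoid cells, and it acts through the broadly expressed receptor TNFR1 (Tnfrsf1a) and the receptor TNFR2 (Tnfrsf1b), which is found mostly on immune cells. Receptor engagement activates a kinase that marks the inhibitor IκBα (Nfkbia) for destruction and frees NF-kB to enter the nucleus. NF-kB then induces its own brakes, IκBα and the ubiquitin-editing enzyme A20 (Tnfaip3), together with IκBζ (Nfkbiz), a nuclear cofactor for secondary response genes, and cyclooxygenase-2 (Ptgs2), which makes prostaglandin precursors. Interleukin-10 (Il10) is an anti-inflammatory cytokine that limits the production of TNF. In lungs exposed to silica, TNF has long been studied as a product of the phagocytes that take up the particles.

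Promoter sequence was matched for 6 of the 8 genes in RefSeq (build GRCm38.p6), in 7 windows. The short pattern of GGG and CC separated by any 5 bases, searched on both strands of the 250 bases before each start, occurred in all 7 of these windows and in 45.8% of 32851 windows of the same length. The stricter NF-kB consensus, which is a subset of that pattern, was found in 3.90% of all windows and in 2 windows of these genes, those of Nfkbia and Tnfaip3. The stretches below are shown because they hold these matches, in capitals, upstream of the 2 inhibitor genes and of Tnf, whose match met the short pattern only. They read 5′ to 3′ on the minus strand, the strand of all 3 genes, and lie at chr12:55492648-55492797 (Nfkbia, the 150 bases before the start), chr10:19015411-19015440 (Tnfaip3, 30 bases) and chr17:35202078-35202227 (Tnf, from 220 to 71 bases before the start).
Nfkbia: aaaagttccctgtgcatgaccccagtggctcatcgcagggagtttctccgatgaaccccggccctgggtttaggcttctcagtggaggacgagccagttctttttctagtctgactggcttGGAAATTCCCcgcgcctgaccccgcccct
Tnfaip3: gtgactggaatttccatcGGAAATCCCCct
Tnf: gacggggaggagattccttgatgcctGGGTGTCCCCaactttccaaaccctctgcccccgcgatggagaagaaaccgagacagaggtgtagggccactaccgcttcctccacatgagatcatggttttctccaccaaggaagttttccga
The Tnfaip3 start in RefSeq lies inside the gene as GENCODE annotates it. A match describes letters only, and no binding was measured. The genes lie at chr17:35199381-35202007 (Tnf), chr6:125349362-125362484 (Tnfrsf1a), chr4:145213463-145246870 (Tnfrsf1b), chr10:19000910-19015657 (Tnfaip3), chr12:55489410-55492647 (Nfkbia), chr16:55811375-55838899 (Nfkbiz), chr1:150100031-150108227 (Ptgs2) and chr1:131019845-131024974 (Il10) in the GENCODE annotation of GRCm38.

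The kept cells of one hashtag gave between 54043860 and 91786583 reads. The deposited numbers are reads rather than molecules: the median nonzero entry was 9 (WT) and 11 (CCR2KO). Upper limits given for counts of 0 cover counting error only. Cells fell into 29 clusters, of which 24 took the name of a cell type from its markers, written here with the ending "-like". The 8 genes and Ccr2 were left out of the clustering genes, and class-to-class levels are given as a description with no test. The neutrophil-like class had 9 of 9 neutrophil markers (S100a8, S100a9, Csf3r and others) and the interstitial macrophage-like class 9 of 9 of its own (C1qa, Folr2, Mrc1 and others). Unnamed clusters keep their numbers: cluster 10 held 5 classical and 5 nonclassical monocyte markers, cluster 12 held T cell markers with Foxp3, Ctla4 and Il1rl1 among its leading genes, and cluster 1 was endothelial, with Aplnr, Sox17 and Edn1 leading. Levels were ranked over the 24 classes and clusters with enough cells in enough hashtags to be tested. The basophil or mast cell-like, mesothelial cell-like and plasma cell-like classes and cluster 25 were too small and were left out of the ranks. Of these, cluster 25 had 0 and 249.8 CPM of Tnf in its 2 WT hashtags. In WT the basophil or mast cell-like class (14 cells) held 0.0356% of reads but 0.495% of Nfkbiz, 0.440% of Tnfaip3 and 0.431% of Ptgs2 reads. Its CCR2KO shares (15 cells) were 0.0486%, 0.550%, 0.5865% and 0.220%. Mesothelial cell-like cells of CCR2KO had a mean of 525.9 CPM of Nfkbiz over 4 hashtags. Ccr2 over all kept cells was 75.5 CPM in WT (53.8 to 101) and 2.72 CPM in CCR2KO (1.45 to 4.39), with no overlap. Cell numbers shared between the libraries made up 1.78% of WT and 1.99% of CCR2KO cells.

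**Figure D1:**
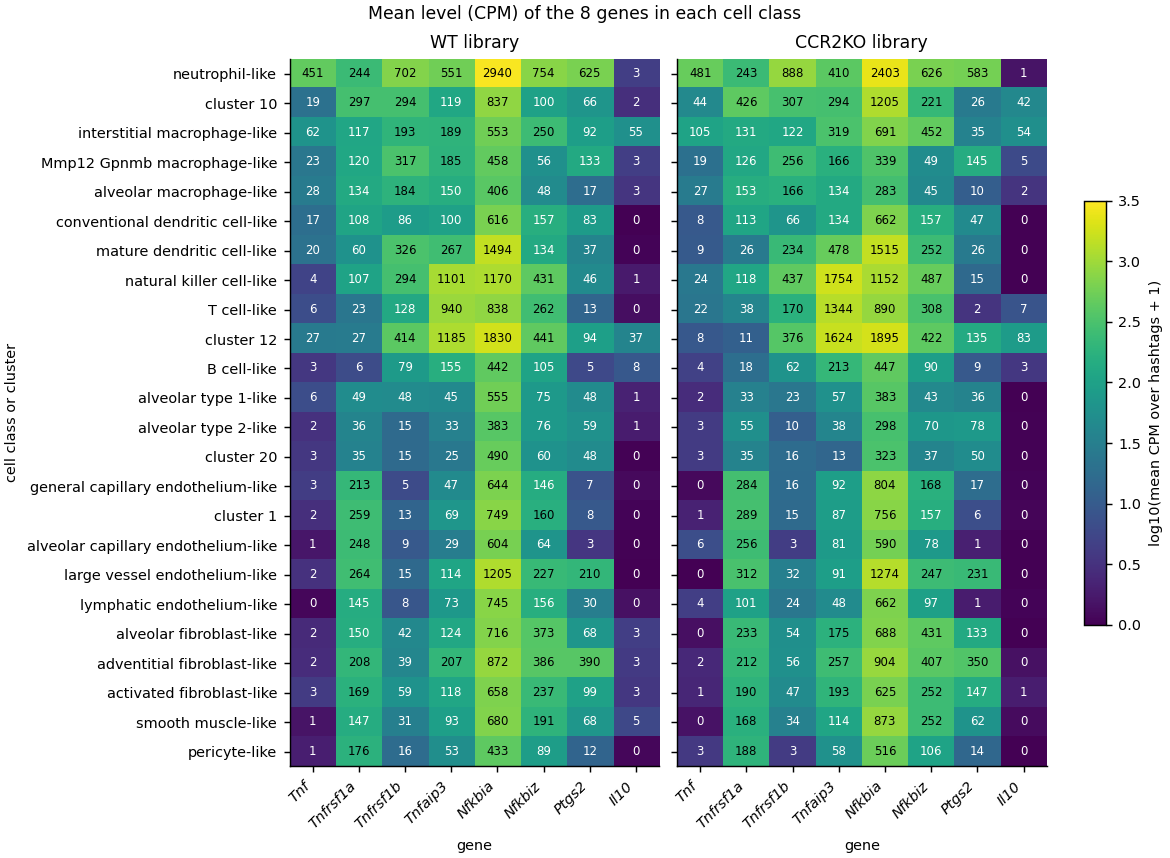
Mean CPM over hashtags of the 8 genes (columns) in 24 cell classes and clusters (rows), one panel per library. Colour is log10(mean CPM + 1) and the printed number is the mean CPM. Tnf stands at 451 and 481 CPM in neutrophil-like cells, and Tnfrsf1a is spread over endothelial, fibroblast and myeloid classes.

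Tnf transcripts were concentrated in neutrophil-like cells. This class held 5.77% of WT cells and 1.98% of WT reads but 41.4% of the Tnf reads; in the CCR2KO library it held 7.94% of cells, 2.39% of reads and 54.7% of the Tnf reads. The interstitial macrophage-like class held 3.11% of cells, 5.86% of reads and 15.6% of the Tnf reads in WT. In CCR2KO it held 1.92%, 3.88% and 15.1%. Relative to its share of cells, it held less of the Tnf reads than neutrophil-like cells in WT but no less in CCR2KO. The alveolar macrophage-like class held 14.95% (WT) and 15.9% (CCR2KO) of the Tnf reads. These 3 phagocyte classes together therefore carried most Tnf reads of both libraries, as the plot of read shares shows.

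In WT neutrophil-like cells Tnf was 217.1, 177.9, 962.5, 673.1, 107.7, 777.6, 266.0, 176.3 and 697.1 CPM in hashtags 1 to 9. In CCR2KO neutrophil-like cells it was 594.4, 473.5, 341.8, 373.8, 432.3, 571.8, 437.2 and 623.4 CPM in hashtags 1 to 8. Of the WT hashtags, 5 lay below and 4 above every CCR2KO value, and the WT mean of 450.6 ± 323.1 CPM (SD) had a spread wider than the CCR2KO mean of 481.0 ± 104.6. A Tnf read was found in 15.2% of WT and 13.2% of CCR2KO neutrophil-like cells, at a median of 10690 and 10228.5 reads per cell. In alveolar type 2-like cells, which should lack the gene, the shares were 1.68% and 0.916% at 43146 and 44827 reads per cell. Neutrophil-like cells thus had a Tnf read far more often than an epithelial class that was read more deeply. When every cell was thinned to 5000 reads, the neutrophil-like shares were 13.7% and 12.6% and the alveolar type 2-like shares 0.561% and 0.461%.

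Of the classes ranked, interstitial macrophage-like cells had the next highest Tnf level, 61.8 ± 29.9 CPM in WT and 105.4 ± 101.8 CPM in CCR2KO. Their ranges over hashtags, 36.0 to 128.9 and 19.9 to 343.7 CPM, overlapped those of neutrophil-like cells at the edge in both libraries, and the highest CCR2KO value came from 14 cells of hashtag 8. A Tnf read was found in 19.1% and 23.8% of these cells, which were read to a median of 62058.5 and 60316 reads; thinned, the shares were 11.5% and 13.7%, close to those of neutrophil-like cells. The share of cells with a Tnf read therefore did not separate the 2 classes at equal depth, while the CPM differed 7.29-fold in WT and 4.56-fold in CCR2KO. CPM is relative to all reads of a class, and neutrophil-like cells had fewer reads per cell (median 10690 and 10228.5). These folds are therefore not folds per cell. Alveolar macrophage-like cells had 27.7 and 27.3 CPM, Mmp12 Gpnmb macrophage-like cells 23.4 and 18.6, and cluster 12 had 27.0 and 8.23. Cluster 10 stood below these 3 in WT (19.4 ± 15.5 CPM) and above them in CCR2KO (43.5 ± 57.8), where 3 of its hashtags had no Tnf read.

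**Figure D2:**
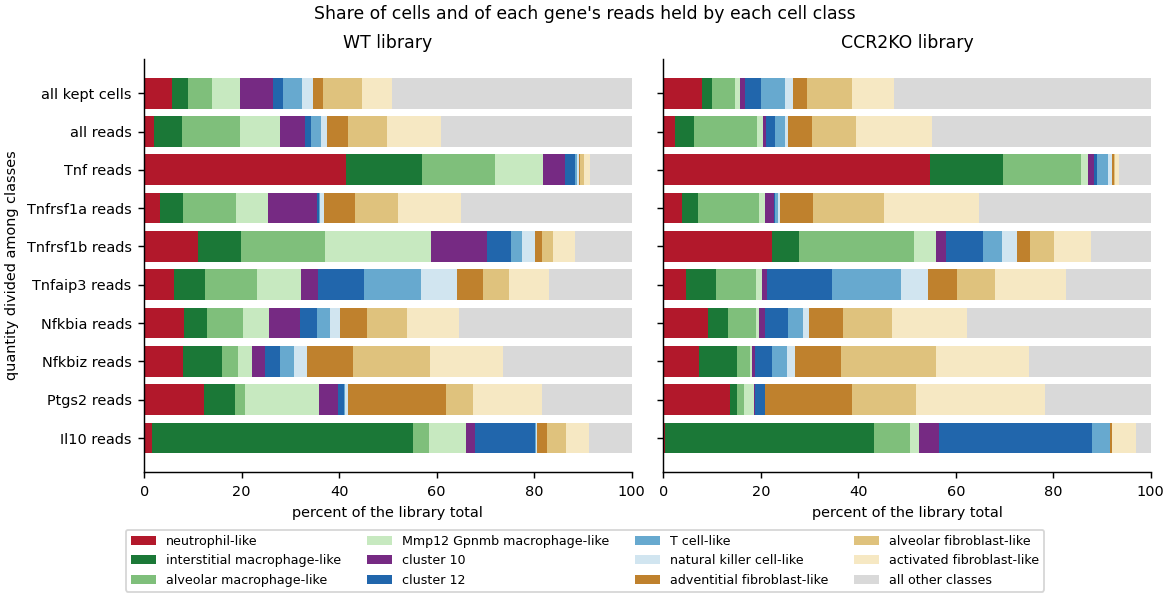
Percent of kept cells, of all reads and of each gene's reads held by 11 classes and by all other classes (x axis, percent of the library total), one panel per library. Neutrophil-like cells (dark red) hold 41.4% and 54.7% of Tnf reads against 5.77% and 7.94% of cells, and interstitial macrophage-like cells (dark green) hold 53.6% and 42.8% of Il10 reads.

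The receptors had different patterns across classes. Tnfrsf1a was highest in cluster 10 (297.0 ± 38.4 CPM in WT, 425.8 ± 194.2 in CCR2KO), large vessel endothelium-like cells (263.5 ± 152.5 and 311.9 ± 130.5) and cluster 1 (259.0 ± 73.7 and 289.4 ± 113.3). Alveolar capillary endothelium-like cells (247.6 and 256.4 CPM), neutrophil-like cells (244.0 and 242.8) and adventitial fibroblast-like cells (208.0 and 212.4) were close behind, and none of the leading neighbours separated beyond their hashtag ranges. Of the classes ranked, B cell-like cells were lowest in WT at 5.59 CPM (17.6 in CCR2KO), and cluster 12 was lowest in CCR2KO at 10.8 CPM (27.3 in WT).

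Tnfrsf1b was highest in leukocyte classes in these libraries. Neutrophil-like cells had 702.5 ± 161.4 CPM in WT and 887.6 ± 118.3 in CCR2KO, cluster 12 had 414.1 ± 173.2 and 375.8 ± 210.9, and natural killer cell-like cells had 294.0 ± 117.7 and 436.6 ± 169.6. Mmp12 Gpnmb macrophage-like cells, which made up 5.73% of WT but 0.948% of CCR2KO cells, had 316.9 and 255.6 CPM and held 21.8% of the WT Tnfrsf1b reads. Activated, alveolar and adventitial fibroblast-like cells had 59.4, 42.3 and 38.8 CPM in WT and 47.3, 53.6 and 56.0 in CCR2KO. These levels were not far below B cell-like cells (78.6 and 61.6). The 3 fibroblast classes held 7.59%, 4.92% and 2.62% of the CCR2KO Tnfrsf1b reads. Endothelial classes were near the bottom, with 8.62 and 3.39 CPM in alveolar capillary endothelium-like cells. The classes at the extremes of the receptor pair were therefore different ones: blood vessel endothelium was high for Tnfrsf1a and low for Tnfrsf1b, and cluster 12 the reverse. Lymphatic endothelium-like cells were lower for Tnfrsf1a, at 144.8 and 100.9 CPM.

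Among the feedback genes, Tnfaip3 was highest, of the classes ranked, in 3 lymphoid groups. Natural killer cell-like cells had 1101 ± 233.8 CPM in WT and 1754 ± 653.2 in CCR2KO, cluster 12 had 1185 ± 269.9 and 1624 ± 384.1, and T cell-like cells 939.8 ± 234.1 and 1344 ± 397.6. The hashtag ranges of these 3 overlapped. B cell-like cells, also lymphoid, were far lower, at 155.2 and 213.0 CPM. Neutrophil-like cells had 550.9 and 409.5 CPM and mature dendritic cell-like cells 266.6 and 477.6, so that the order of this pair differed between the libraries. Alveolar type 2-like cells (33.0 and 37.6) and cluster 20, which held club and ciliated cell markers (24.6 and 13.1), were lowest by the mean of both libraries.

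Nfkbia was detected in every class ranked, from 2940 ± 749.0 and 2403 ± 513.1 CPM in neutrophil-like cells to 382.7 CPM in alveolar type 2-like cells of WT (298.1 in CCR2KO) and 282.7 CPM in alveolar macrophage-like cells of CCR2KO (405.5 in WT). Cluster 12 (1830 and 1895 CPM) and mature dendritic cell-like cells (1494 and 1515) lay between. Large vessel endothelium-like cells, at 1205 and 1274 CPM, had higher means than general capillary (643.6 and 804.3) and alveolar capillary endothelium-like cells (603.9 and 589.5).

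Of the classes ranked, Nfkbiz was also highest in neutrophil-like cells, at 754.1 ± 222.8 and 626.0 ± 127.8 CPM. By the mean of both libraries, natural killer cell-like cells (431.3 and 486.8), cluster 12 (441.0 and 422.2), alveolar fibroblast-like cells (373.2 and 430.7) and adventitial fibroblast-like cells (385.9 and 407.2) followed. Interstitial macrophage-like cells had 249.6 CPM in WT and 451.5 in CCR2KO, where they stood above cluster 12 and both of these fibroblast classes. The alveolar, adventitial and activated fibroblast-like classes held 15.9%, 9.40% and 14.9% of the WT Nfkbiz reads and 19.4%, 9.57% and 19.0% of the CCR2KO reads. Alveolar macrophage-like cells were lowest in WT, at 48.5 CPM (44.7 in CCR2KO).

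By the mean of both libraries, Ptgs2 was highest, of the classes ranked, in neutrophil-like cells, structural classes and 1 macrophage class. Some other leukocytes also held it. Cluster 12 had 94.4 CPM in WT and 135.1 in CCR2KO, interstitial macrophage-like cells 91.5 and 34.6, and conventional dendritic cell-like cells 83.3 and 46.5. Neutrophil-like cells had 625.1 ± 435.3 and 582.6 ± 351.7 CPM, adventitial fibroblast-like cells 389.5 ± 232.5 and 349.9 ± 59.4, and large vessel endothelium-like cells 209.9 ± 59.6 and 230.9 ± 103.4. Mmp12 Gpnmb macrophage-like cells followed with 132.7 ± 64.6 and 144.9 ± 60.8 CPM. They held 15.2% of the Ptgs2 reads in WT and 2.03% in CCR2KO, against 12.3% and 13.6% in neutrophil-like, 20.1% and 17.8% in adventitial fibroblast-like and 14.0% and 26.6% in activated fibroblast-like cells. A Ptgs2 read was found in 48.4% and 41.9% of adventitial fibroblast-like cells and in 26.9% and 21.5% of neutrophil-like cells, against 2.16% and 1.92% of B cell-like cells, taken as the background. Thinned to 5000 reads, the shares were 31.4% and 28.8%, 23.7% and 19.6%, and 0.914% and 1.06%. Capillary classes were at the other end, with 2.52 and 1.02 CPM in alveolar capillary endothelium-like cells.

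Il10 was rare, and 2 classes held most of it. Interstitial macrophage-like cells had 53.6% of the WT and 42.8% of the CCR2KO Il10 reads, and cluster 12 had 12.4% and 31.4%. In interstitial macrophage-like cells the level was 14.7 to 108.9 CPM over WT hashtags (median 50.2) and 0 to 138.9 over CCR2KO hashtags (median 49.1), and 10.9% and 8.04% of cells had a read. In cluster 12, WT hashtags 1 to 5 had 15.5 to 150.2 CPM, while hashtag 6 had 0.891 CPM and hashtags 7, 8 and 9 had none; all 8 CCR2KO hashtags had reads, from 6.19 to 205.0 CPM. Those reads came from few cells, 14 of 374 in WT and 18 of 473 in CCR2KO. No read was found in the 435 WT and 238 CCR2KO conventional dendritic cell-like cells, which allows a share of cells with an Il10 read of up to 0.690% and 1.26%, or in the 242 and 201 large vessel endothelium-like cells, which allows up to 1.24% and 1.49%. These limits concern detected reads, not cells that express the gene.

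Within neutrophil-like cells, those with a Tnf read more often had reads of the feedback genes. At 5000 reads per cell, Nfkbia was found in 82.7% of 133 WT cells with a Tnf read and in 64.6% of the 840 others, and in 84.5% of 148 and 51.7% of 1025 in CCR2KO. Tnfaip3 was found in 42.1% against 19.6% in WT and 31.1% against 13.8% in CCR2KO, and both genes were more frequent in the cells with Tnf in 8 of 8 hashtags of each library that had at least 5 such cells. For Nfkbiz the shares were 43.6% against 27.6% and 41.9% against 19.1%, and for Ptgs2 39.9% against 21.2% and 29.7% against 18.2%, each higher in 7 or 8 of 8 hashtags. Tnfrsf1a went the other way in most hashtags, with 12.03% against 14.2% and 6.76% against 10.9%. The other receptor gene, Tnfrsf1b, was found in 42.1% against 31.4% in WT and 39.9% against 27.1% in CCR2KO, higher in 6 of 8 hashtags of each library. The cells with Tnf were of like depth before thinning (median 11351 against 10502 reads in WT, 10910.5 against 10190 in CCR2KO). These are shares of cells from shared suspensions and were not tested.

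Neutrophil-like cells with a read of the chemokine genes Ccl3 or Ccl4 had higher means of Tnf and of the feedback genes than those without, with overlapping hashtag ranges. Tnf was 582.0 ± 433.0 CPM in the 663 WT cells with such a read and 93.0 ± 98.7 in the 310 without, and 584.7 ± 182.9 against 165.2 ± 167.6 CPM in the 811 and 371 CCR2KO cells. Nfkbia was 3333 against 1922 CPM in WT (1688 to 4142 against 1146 to 3351) and 2744 against 1457 in CCR2KO. The means were closer for Nfkbiz (792.5 against 650.6 in WT and 673.3 against 485.2 in CCR2KO) and for Ptgs2 (669.8 ± 483.5 against 500.1 ± 509.6 in WT and 660.7 ± 350.3 against 364.9 ± 271.2 in CCR2KO). Tnfrsf1a was lower in the cells with the chemokines, 209.6 against 360.7 and 194.6 against 387.6 CPM. Tnfrsf1b had higher means there, 750.3 against 531.2 and 955.2 against 688.2 CPM, with overlapping hashtag ranges.

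The design compares silica-treated lungs with and without CCR2, a chemokine receptor that monocytes use to leave the bone marrow. Over all kept cells, edgeR's quasi-likelihood test with Benjamini-Hochberg adjustment called 1 of the 8 genes, Nfkbiz, against 11.5% of the 19198 genes tested (5.02% higher and 6.47% lower in CCR2KO). That share of the 8 is close to the background. Nfkbiz was 151.1 to 193.1 CPM over WT hashtags (median 173.8) and 170.5 to 240.0 over CCR2KO hashtags (median 205.3), so the groups overlapped, and 7 of 8 CCR2KO hashtags lay above the WT median. The log2 change was 0.23 (SE 0.06, adjusted p = 0.0241, edgeR). Leaving out CCR2KO hashtag 7, which had the highest value, gave an adjusted p of 0.0583 (edgeR). A level over all cells also moves with the cell make-up, and in such sums fewer cells of a type and less RNA per cell cannot be told apart: cluster 10 made up 6.65% of WT and 1.20% of CCR2KO cells, and the fibroblast classes rich in Nfkbiz 16.2% and 20.7%.

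The other 7 genes did not pass the test over all cells. Tnf had a log2 change of -0.07 (SE 0.19), Tnfrsf1a 0.01 (SE 0.10), Nfkbia -0.12 (SE 0.06), Tnfaip3 0.29 (SE 0.15), Ptgs2 0.19 (SE 0.10) and Il10 -0.16 (SE 0.33). Tnfrsf1b was 76.4 to 187.5 CPM over WT hashtags (median 138.9) and 58.8 to 122.1 over CCR2KO hashtags, with overlapping ranges. Its log2 change was -0.46 (SE 0.17, adjusted p = 0.0886, edgeR). DESeq2, which called 15.6% of all genes, called it (adjusted p = 0.0472), as did edgeR without WT hashtag 7 (adjusted p = 0.0343). Mmp12 Gpnmb macrophage-like cells and cluster 10 held 21.8% and 11.6% of the Tnfrsf1b reads in WT and 4.57% and 2.12% in CCR2KO. They made up 5.73% and 6.65% of WT cells and 0.948% and 1.20% of CCR2KO cells. Within the 19 classes tested, the log2 change of Tnfrsf1b was above 0 in 8 and below 0 in 11. The part of the cell make-up was not tested.

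Within cell classes, none of the 143 fits of a gene in a class passed edgeR's quasi-likelihood test, where 0.351% of 204992 gene-by-class fits did. At an unadjusted p under 0.05 there were 21 (14.7%, against 5.85% over all genes), 17 higher and 4 lower in CCR2KO. DESeq2 called 5 of 143 (0.989% over all genes). In the classes described next, edgeR called 0.108% of the genes tested in neutrophil-like cells, 0.398% in interstitial macrophage-like cells, 0.745% in alveolar fibroblast-like cells and 3.70% in cluster 10. Of the 192 possible pairs of gene and class, 49 were too low to test: Tnf was tested in 9 classes and Il10 in 2. Tnf in neutrophil-like cells had a log2 change of 0.03 with an SE of 0.37, so changes of moderate size in either direction were not detectable here.

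**Figure D3:**
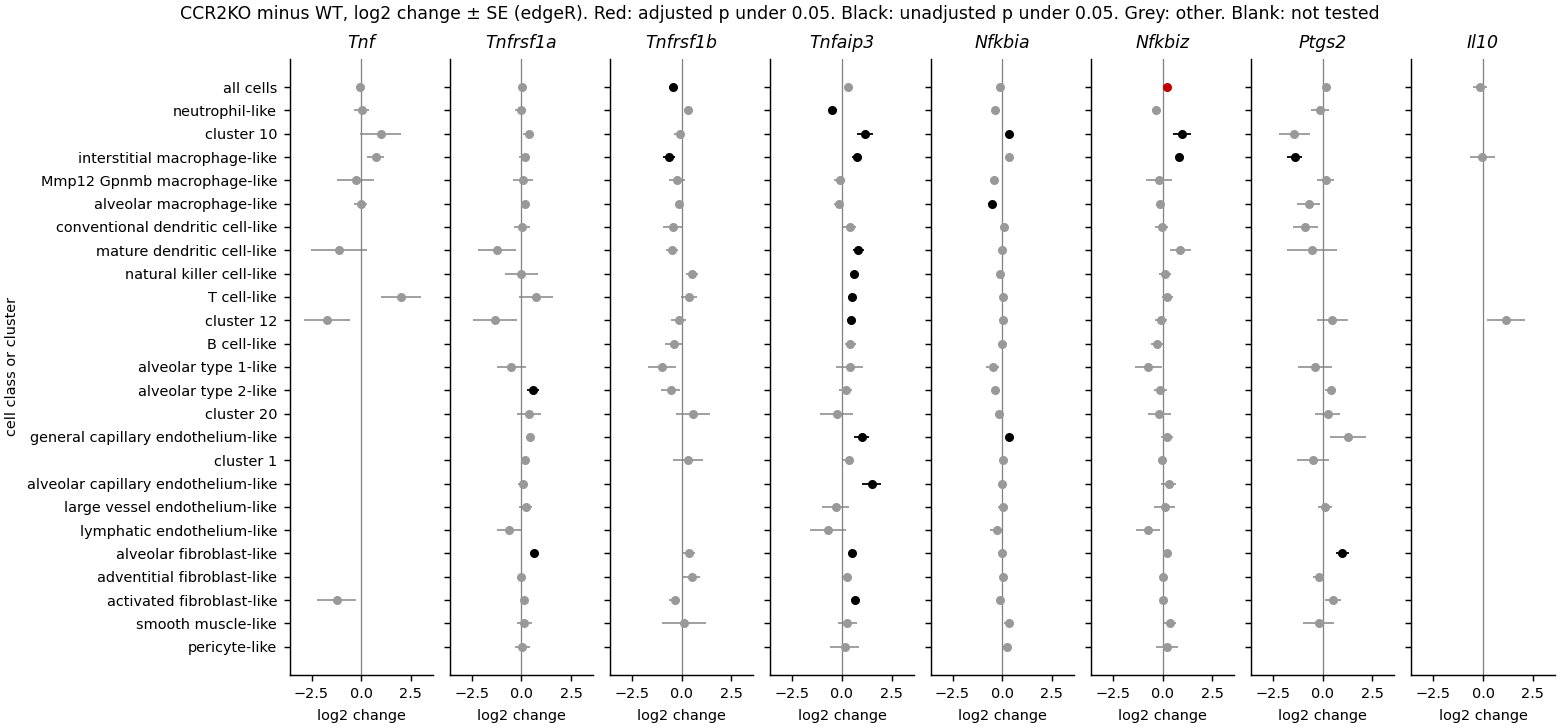
Log2 change of CCR2KO against WT with its SE (x axis) for each gene (panels) over all cells and in each class (rows), from edgeR. Red marks the 1 adjusted p under 0.05 (Nfkbiz over all cells, 0.23), black an unadjusted p under 0.05 and grey the rest. Tnfaip3 lies right of 0 in 18 of 24 classes.

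Tnfaip3 was the gene with most unadjusted differences. Its log2 change was above 0 in 18 of 24 classes, with a median of 0.39, and 11 of the 24 fits had an unadjusted p under 0.05. The median over all genes tested in a class lay between -0.18 and 0.04. That range describes whole classes, and how often other single genes reach such counts was not computed. Of these 11 the log2 change was below 0 in neutrophil-like cells (-0.48, SE 0.22, unadjusted p = 0.0421 by edgeR) and above 0 in the other 10, among them T cell-like cells (0.50, SE 0.18), natural killer cell-like cells (0.58, SE 0.20), interstitial macrophage-like cells (0.75, SE 0.24) and activated fibroblast-like cells (0.68, SE 0.23). No adjusted p was under 0.146 (edgeR). The classes share their hashtags and cartridge, so these fits are not independent of each other. In cluster 10, Tnfaip3 was 20.7 to 194.7 CPM over WT hashtags (median 126.2) and 61.3 to 469.4 over CCR2KO hashtags (median 298.4). All CCR2KO hashtags except hashtag 7 lay above every WT value, and each rested on 13 to 36 cells. The log2 change was 1.14 (SE 0.40, adjusted p = 0.146, edgeR), with an adjusted p of 0.0132 by DESeq2 and 0.0366 by edgeR without CCR2KO hashtag 7. Cluster 10 held markers of both monocyte types and numbered 1121 cells in WT and 179 in CCR2KO. A different mix of these types and a change per cell cannot be told apart there.

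Interstitial macrophage-like cells, which numbered 524 in WT and 286 in CCR2KO and whose Ccr2 was 230 against 1.28 CPM, came closest to a call. Nfkbiz was 291.0, 272.6, 356.4, 153.5, 209.8, 264.1, 234.9, 262.9 and 201.2 CPM in WT hashtags 1 to 9. It was 252.1, 321.3, 461.7, 428.2, 449.9, 398.3, 762.5 and 537.6 CPM in CCR2KO hashtags 1 to 8. Of the CCR2KO hashtags, 6 lay above every WT value and hashtags 1 and 2 lay within the WT range. The log2 change was 0.85 (SE 0.20, adjusted p = 0.0612, edgeR), and it passed with DESeq2 (adjusted p = 0.00532) and with edgeR without WT hashtag 3 (0.0381), without CCR2KO hashtag 1 (0.0233) and with doublets kept (0.0215). In the same cells Ptgs2 was 27.9 to 176.1 CPM over WT hashtags (median 89.0) and 13.9 to 60.1 over CCR2KO hashtags (median 33.8). Only WT hashtags 7 and 9 reached into the CCR2KO range, and the log2 change of -1.41 (SE 0.37) had an adjusted p of 0.130 by edgeR and 0.0289 by DESeq2. Tnf (0.72, SE 0.42) and Il10 (-0.03, SE 0.63) did not pass in these cells. At resolution 0.8 no cluster took the interstitial macrophage name. An unnamed cluster of 1579 WT and 433 CCR2KO cells then held markers of both interstitial and Mmp12 Gpnmb macrophages. A different mix of cells within the class and a change per cell cannot be told apart here.

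Alveolar fibroblast-like cells had the lowest adjusted p for a receptor. Tnfrsf1a was 88.3 to 208.7 CPM over WT hashtags (median 153.5) and 172.3 to 311.3 over CCR2KO hashtags (median 213.1). Of the CCR2KO hashtags, 4 lay above every WT value, and hashtags 1, 3, 4 and 6 lay within the WT range. The log2 change was 0.65 (SE 0.17, adjusted p = 0.0891, edgeR); DESeq2 gave 0.00868, and edgeR without WT hashtag 8 gave 0.0487. Ptgs2 in these cells had a log2 change of 0.99 (SE 0.34, adjusted p = 0.254, edgeR). That value turned to -0.27 when doublets were kept and the cells clustered again.

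**Figure D4:**
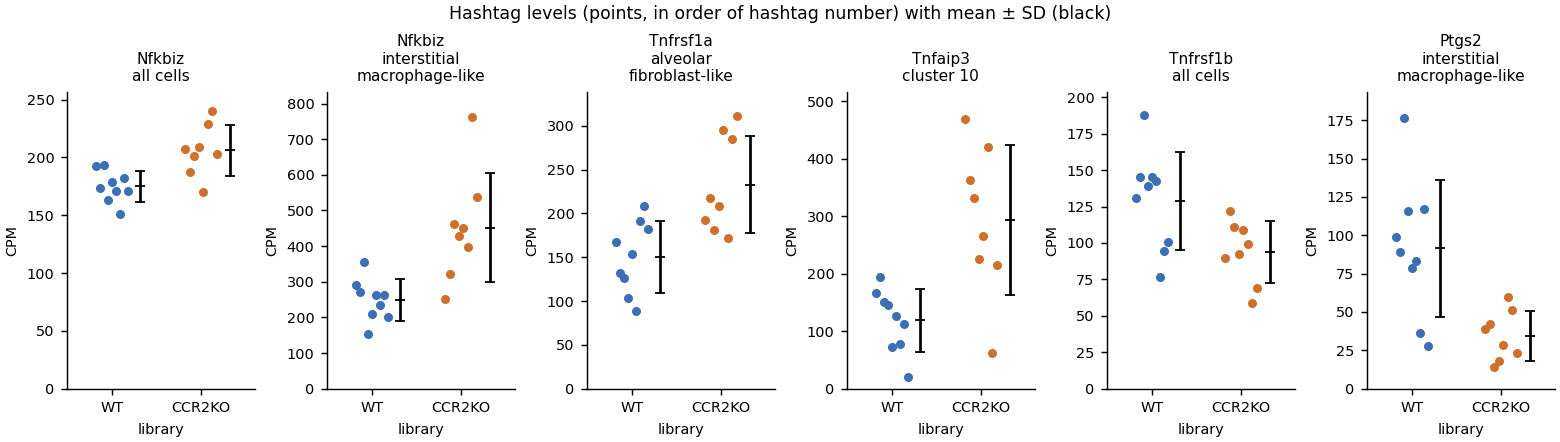
CPM in each hashtag (points, in order of hashtag number; y axis starts at 0) for the 6 gene and class pairs nearest the threshold, with mean ± SD beside them in black. The groups overlap in every panel, and CCR2KO hashtag 7 is highest for Nfkbiz in the first 2 panels and lowest for Tnfaip3 in cluster 10.

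The levels were also set out by hashtag number, in blocks of 1 to 3, 4 to 6 and 7 to 9 (7 and 8 in CCR2KO). No source used here says what a number stands for, and the blocks were not tested. A block apart from all other hashtags in the same direction in both libraries was seen for 4 of 442 combinations of gene, class and block (0.905%), against 0.480% over all genes, so within classes the 8 genes as a set were near the background. Over all cells it was 3 of 21 (14.3%), against 4.71% over all genes. There Tnfrsf1b was lower in hashtags 7 and up (76.4 to 100.5 against 130.7 to 187.5 CPM in WT, 58.8 to 69.3 against 89.4 to 122.1 in CCR2KO). Tnfrsf1a was lower in hashtags 1 to 3 (127.1 to 130.9 against 140.1 to 177.7 CPM in WT, 121.3 to 131.7 against 149.9 to 196.1 in CCR2KO). Nfkbia was higher in hashtags 1 to 3 (690.0 to 815.8 against 592.6 to 673.7 CPM in WT, 677.2 to 693.6 against 571.2 to 620.8 in CCR2KO). These all-cell levels move with the cell make-up of a hashtag, whose part in them was not tested.

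One of the 4 within classes was Ptgs2 in neutrophil-like cells. It was 882.1, 226.3 and 1108 CPM in WT hashtags 1 to 3, 916.6, 863.8 and 1143 in hashtags 4 to 6, and 162.6, 113.8 and 209.9 in hashtags 7 to 9. The CCR2KO values were 1203, 922.3 and 828.6, then 411.2, 353.8 and 360.7, then 249.6 and 331.4. Hashtags 7 and up were thus the lowest in both libraries, by a narrow margin over the next hashtag (226.3 in WT and 353.8 in CCR2KO), as were 0.290% of 7249 genes in this class, while Tnf in the same cells had no such order. The other 3 were Nfkbia in alveolar type 2-like cells, and Nfkbiz in conventional dendritic cell-like cells and in cluster 20. Nfkbia was 459.7 to 689.3 CPM in WT hashtags 1 to 3 and 226.8 to 392.8 in the rest, and 377.2 to 412.7 against 212.4 to 285.8 in CCR2KO (1.10% of 7708 genes were higher in that block). Nfkbiz was higher in hashtags 7 and up in conventional dendritic cell-like cells (192.5 to 290.3 against 50.8 to 173.4 CPM in WT; 0.157% of genes) and lower there in cluster 20 (3.78 to 27.8 against 31.4 to 164.3 CPM in WT; 0.145% of genes).

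**Figure D5:**
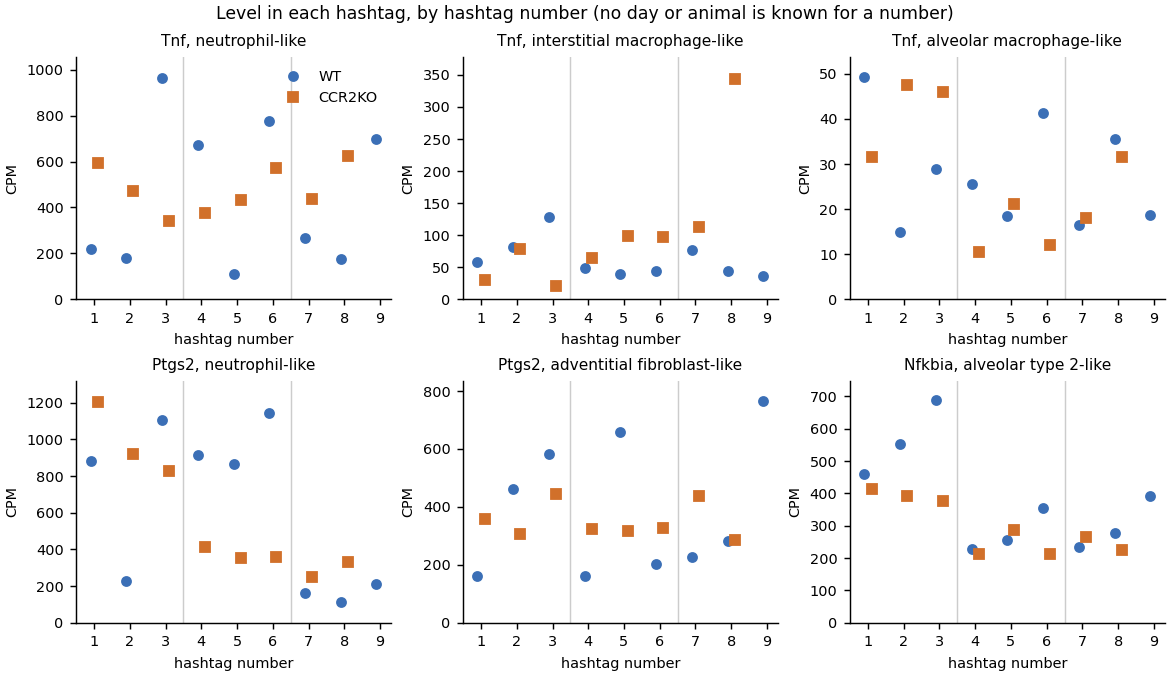
CPM by hashtag number for WT (circles) and CCR2KO (squares) in 6 gene and class pairs; grey lines divide the number blocks, and each y axis starts at 0. Ptgs2 in neutrophil-like cells is lowest in hashtags 7 and up in both libraries, Nfkbia in alveolar type 2-like cells is highest in hashtags 1 to 3, and Tnf shows neither.

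The wider pathway was read from 10 gene lists over all kept cells, beside the 11.5% of all genes called and an all-gene median log2 change of 0.01. Of 5 NF-kB subunit genes, Rel was lower in CCR2KO (log2 change -0.79, SE 0.19). Of 13 other inhibitors and deubiquitinases, the inhibitors Nfkbie (-0.63, SE 0.12) and Nfkbib (-0.41, SE 0.10) were lower, and none of the 11 activating kinases passed in edgeR (2 at an unadjusted p under 0.05) or in DESeq2 (list median -0.17). Of 14 genes of the TNF receptor complex, Cflar, an inhibitor of caspase-8, was lower (-0.26, SE 0.07). Among 7 regulators of Tnf mRNA, Elavl1, which binds and stabilizes messages with AU-rich elements, was higher (0.27, SE 0.08). Of 12 other TNF superfamily genes 3 were lower, Cd40, Tnfsf10 and Tnfsf12, and none was higher. The adjusted p of each gene named from these lists was under the threshold by edgeR.

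The 27 NF-kB target genes moved in both directions: 3 were higher in CCR2KO and 6 lower, with a list median of -0.22. Higher were the neutrophil chemoattractant Cxcl1 (0.49, SE 0.14), the siderophore-binding protein gene Lcn2 (0.78, SE 0.23) and the adhesion molecule Vcam1 (0.40, SE 0.12). Lower were Il1b (-0.83, SE 0.13), Pim1 (-0.90, SE 0.13), Ehd1 (-0.64, SE 0.06), Cxcl2 (-0.45, SE 0.13), Marcksl1 (-0.44, SE 0.11) and Irf1 (-0.28, SE 0.06). In the prostaglandin list 18 of 19 genes were tested; Ptgs1, the constitutive cyclooxygenase, was higher (0.76, SE 0.12), and the prostaglandin-degrading enzyme Hpgd (-0.55, SE 0.17) and the thromboxane receptor Tbxa2r (-0.98, SE 0.19) were lower. Of 10 interleukin-10 pathway genes Socs3 was lower (-0.24, SE 0.07). Of 18 immediate early and dissociation-induced genes Hspa1b was higher (0.81, SE 0.23) and Egr2 lower (-0.45, SE 0.11), with a list median of 0.03. The share of cells in cluster 10 and in the Mmp12 Gpnmb macrophage-like class was lower in CCR2KO beside all of these values, and its part in them was not tested.

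The genes whose mean CPM over the 24 classes ranked most like each of the 8 were, by Spearman's rho, Csf2ra (0.930), Oas3 (0.903) and Pik3ap1 (0.875) for Tnf, Klhl2 (0.881), Ifitm2 (0.879) and Tmem184b (0.863) for Tnfrsf1a, and Ifrd1 (0.937), Pim1 (0.911) and Zc3h12a (0.890) for Tnfrsf1b. They were Zc3h12a (0.902), Pim1 (0.895) and Plcl2 (0.894) for Tnfaip3, and Csrnp1 (0.810), Gbp2 (0.810) and Nfkbiz (0.809) for Nfkbia. For Nfkbiz they were Nfkbia (0.809), Lysmd3 (0.787) and Ksr1 (0.785), for Ptgs2 Pde7b (0.697), Serpinb8 (0.682) and Ugt1a5 (0.668), and for Il10 Heatr1 (0.788), Sema4b (0.785) and Adcy7 (0.753). The classes share hashtags and library, and the values are descriptions.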

How the data were processed

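Per the submitters' processing notes, the authors trimmed and mapped the reads with tools that include cutadapt 2.10, Bowtie2 2.4.2 and R 3.6.3, with the build GRCm38; the counting step is not given in the sources used here. The deposited tables hold whole-number counts of reads per gene and cell, with the hashtag in the cell's name. Cells the authors named as doublets (680 WT, 531 CCR2KO) or gave neither name (2 CCR2KO) were left out. Kept cells had at least 200 genes and at most 25% mitochondrial reads; Scrublet (in scanpy 1.11.5) marked 2.15% and 2.21% of them, which were removed. Cells were clustered with Leiden (resolution 1.5, seed 1) on 2000 variable genes and 40 principal components. A cluster took a name when at least 3 markers of 1 class were among its 100 leading genes, at no less than 1.5 times the count of the next class. It stayed unnamed if its 10 leading genes held more markers of another class, as for clusters 1 and 12. Clusters of shallow cells whose 10 leading genes held no marker of the class were also to stay unnamed. Reads were summed per class and hashtag with at least 10 cells and tested with edgeR 4.0.16 (filterByExpr, TMM, quasi-likelihood, Benjamini-Hochberg at 0.05 over all genes of the class); DESeq2 1.42.0 was an alternative. The p-values measure the spread between stained suspensions, which may be technical. The scripts for these tests were tested on simulated data. The 8 genes and the lists were chosen with earlier results of these data known. The text names the 8 genes in every class, list genes called in a comparison where one of the 8 was called, and the 3 genes most like each of the 8 across classes among those with at least 20 CPM in some class. The alternatives were other scaling, no filter on low counts, a stricter cell filter (500 genes, 10% mitochondrial reads), doublets kept, resolution 0.8, at least 20 cells per hashtag, the hashtag number as a block, and each hashtag left out in turn.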

Additional observations from a re-analysis of the deposited data

Results flagged for a closer look

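In 64 groups of hashtags (each gene in its 3 highest classes and over all cells, by library), 9 had a single hashtag far from the others by Dixon's ratio, where chance gives about 1 in 20. In interstitial macrophage-like cells Tnf was 128.9 CPM in WT hashtag 3 (next highest 81.7, 43 cells) and 343.7 CPM in CCR2KO hashtag 8 (next 112.8, 14 cells). Tnfrsf1a was 629.4 CPM in WT hashtag 6 of large vessel endothelium-like cells (next 344.5, 17 cells) and 529.8 CPM in CCR2KO hashtag 7 of cluster 1 (next 318.9, 91 cells). In cluster 12, WT hashtag 3 had 809.8 CPM of Tnfrsf1b (next 495.7), hashtag 7 had 958.8 CPM of Nfkbiz (next 530.3) and hashtag 5 had 150.2 CPM of Il10 (next 72.1). In cluster 10, Il10 was 12.4 CPM in WT hashtag 2 (next 4.63) and 337.7 CPM in CCR2KO hashtag 3 (next 1.90), the latter from 106 reads among 19 cells.

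The basophil or mast cell-like class, with 29 cells in all, was too small for a comparison. It had a higher share of cells with a read than any tested class for Tnfaip3 (75.9%, against 69.9% in the next), Nfkbiz (69.0% against 62.1%) and Ptgs2 (51.7% against 44.9%; 7 of 14 WT and 8 of 15 CCR2KO cells).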

How the results depend on the processing

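No gene in a class passed in the fits as reported; 1 passed with RLE scaling (Nfkbia in cluster 10), 1 with the hashtag number as a replicate block (Tnfrsf1a in alveolar fibroblast-like cells), 1 with doublets kept, 1 at resolution 0.8 (Nfkbiz in an unnamed cluster with markers of both interstitial and Mmp12 Gpnmb macrophages) and 5 with DESeq2, and leaving out 1 hashtag gave 0 to 1. Over all cells 1 gene passed; DESeq2 and the strict cell filter each gave 2 (Nfkbiz and Tnfrsf1b), and leaving out 1 hashtag gave 0 to 2. The replicate block called Tnfrsf1b in place of Nfkbiz (adjusted p = 0.000222 and 0.0605, edgeR). Same-numbered hashtags correlated above 0.1 in 6 of 8 pairs (-0.007 to 0.53), and 3 of 8 WT hashtags correlated best with their own number. WT hashtags 1 to 8 correlated best with CCR2KO hashtags 3, 2, 2, 6, 5, 2, 7 and 7. All but WT hashtag 6 thus matched best within the same block of numbers. No label says that a number marks a shared day or mouse, so the numbers were not taken to pair the suspensions. The fits as reported hold genotype only, so differences shared by number stay in their spread. Il10 over all cells (-0.16) ranged from -0.303 to 0.011 when 1 hashtag was left out, above 0 only without CCR2KO hashtag 4. Ptgs2 in alveolar fibroblast-like cells turned from 0.99 to -0.27 with doublets kept and the cells clustered again. The adventitial fibroblast-like cluster then held 1479 cells in place of 747, and the largest alveolar fibroblast-like cluster 1746 in place of 2389. The cells in these classes thus changed as well, and the cause was not tested. Of the other recomputed log2 changes, 635 kept their direction and side of the threshold, 16 newly passed and 2 no longer passed. The class with the highest level was the same for 7 or 8 genes in each alternative. The count of list genes called over all cells was 23 with edgeR and 34 with DESeq2. Depth limits Tnf and Il10 most, since 15 and 22 of 24 classes had too few reads of them for a test.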

Other observations

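In single classes, 10 of 2475 fits of a list gene passed edgeR's test (0.404%, against 0.351% of all fits), and their names were chosen after their values were seen. In neutrophil-like cells the NF-kB target genes Pim1 (log2 change -0.91, SE 0.16) and Ehd1 (-0.91, SE 0.18) were lower in CCR2KO, as they were over all cells. In cluster 10 the Tnf mRNA regulator Zfp36 (0.66, SE 0.15) and the immediate early genes Nr4a1 (0.97, SE 0.22) and Ier2 (0.87, SE 0.25) were higher, and Cd40, Tnfsf9 and Maf were lower. The mix of monocyte types in this cluster was not compared between the libraries. Lcn2 was higher in alveolar macrophage-like cells (1.76, SE 0.38), and Hpgd was lower in alveolar fibroblast-like cells (-1.25, SE 0.26).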
